A study of Mus musculus with 69 samples.

Results

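Acid-base transport and intercalated cell genes were followed in kidneys of NZB/W F1 mice, a hybrid strain that develops lupus nephritis. The set held 10 genes listed by symbol, Slc9a3, Slc4a4, Car2, Foxi1, Atp6v1b1, Atp6v0a4, Slc4a1, Slc26a7, Slc26a4 and Slc4a9, of 24523 symbols with a count, and all 10 were found in every library. Whole perfused kidneys were sequenced from 30 young mice aged 12 weeks, 27 nephritic mice aged 30 to 45 weeks and 8 remission mice treated at 36 to 50 weeks of age. Young mice were untreated, and 7, 4, 4, 7, 4 and 4 of them were collected at ZT0, ZT4, ZT8, ZT12, ZT16 and ZT20, where ZT (zeitgeber time) counts hours from lights on. Nephritic mice, untreated, had proteinuria over 300 mg/dl for 2 to 3 weeks and blood urea nitrogen not yet above 25, and 7, 4, 4, 6, 3 and 3 of them were collected at the same times. Remission mice had been nephritic and received 1 dose of cyclophosphamide (50 mg/kg) with 6 doses of CTLA4Ig (200 ug) and anti-CD40L (250 ug) within 2 weeks. They were killed 8 weeks afterwards at a proteinuria of at most 30 mg/dl, 4 at ZT0 and 4 at ZT12. The study's sample table divides the remission mice between these times differently, and the labels were followed. All groups share the strain, age differs with diagnosis, and remission mice also differ by treatment, so these cannot be told apart.

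The kidney keeps blood pH steady by reclaiming filtered bicarbonate in the proximal tubule and by secreting acid or base in the collecting duct. In the proximal tubule sodium-proton exchange at the luminal side, carbonic anhydrase and sodium-bicarbonate export at the blood side work in series. In the collecting duct the work is done by intercalated cells, of which type A secretes acid through a luminal proton pump and returns bicarbonate by a chloride exchanger, while type B secretes bicarbonate.

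The sequences shown are the 2 member promoters in which letters of a sought transcription factor motif were found, the forkhead letters because Foxi1 is itself a forkhead factor and the E-box letters because clock factors bind E-boxes. RefSeq promoters of GRCm38.p6 were held for 6 of 10 members (7 promoters), and the 250 bases before each start were searched on both strands. In the promoter of Atp6v1b1 at chr6:83742767-83743016, plus strand, the capitals mark TGTTTAC, 98 bases before the start, a forkhead motif carried by 3.17% of 32851 mouse promoters on one strand or the other (TGTTTAC or GTAAACA). In the promoter of Slc9a3 at chr13:74121163-74121412, plus strand, the capitals mark the E-box CACGTG, 87 bases before the start, which 6.02% of promoters hold.
Atp6v1b1: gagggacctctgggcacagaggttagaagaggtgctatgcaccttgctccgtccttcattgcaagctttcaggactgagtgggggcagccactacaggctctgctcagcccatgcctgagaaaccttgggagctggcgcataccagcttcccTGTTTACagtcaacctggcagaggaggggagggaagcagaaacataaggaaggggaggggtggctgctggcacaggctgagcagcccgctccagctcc
Slc9a3: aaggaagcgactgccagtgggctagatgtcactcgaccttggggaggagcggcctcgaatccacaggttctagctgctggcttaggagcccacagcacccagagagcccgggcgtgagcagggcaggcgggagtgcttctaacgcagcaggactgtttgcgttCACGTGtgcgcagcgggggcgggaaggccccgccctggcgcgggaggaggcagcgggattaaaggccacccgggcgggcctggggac
The third motif sought, TATAAA (reverse TTTATA, in 12.4% of promoters), was found 31 bases before the start of Slc26a4. No other match was found in the windows of Slc4a4, Atp6v0a4, Foxi1 or these members, and Car2, Slc4a1, Slc26a7 and Slc4a9 had no entry. Matches are letters in a window and were not set against binding.

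Values are CPM, read counts scaled to a common library size with edgeR's TMM factors, differences are on the log2 scale with standard errors (SE), and adjusted p-values come from edgeR's quasi-likelihood test with Benjamini-Hochberg adjustment over all genes tested, called at 0.05. Total counts per library ran from 25257530 to 35744843 in young, 26596500 to 48075977 in nephritic and 13311278 to 21849912 in remission mice. By library names and the study's sample table, 6 young and 5 nephritic mice of ZT0 and ZT12 belong to RNASeq Set 1. Another 24 young and 22 nephritic mice belong to Set 2, and the remission mice to a run of their own. The 4 repeat libraries of young and nephritic mice were assigned to that run, which their labels do not state. Their totals were 29234354 (ZT0LU), 44175692 (ZT12RU), 15803112 (RX12RU) and 14991137 counts (RX11RU). Some libraries stood apart from their labels. Arntl, a core clock gene, was at 27.01 CPM in remission library s9 of ZT12 against 3.20 to 4.89 CPM in the other 3. It was at 18.03 CPM in nephritic library RX10RU of ZT8 against 2.13 to 3.73 CPM. Over genes, the median chi-square between s9 and remission library s8 of ZT0 was 2.94 times that of sampling noise. It was 4.54 to 26.6 between originals and repeats, and 2.05 for the closest pair (RX12LU and RX11RL). Whether s8 and s9 come from separate mice was not tested. A repeat library labelled as nephritic mouse RX11RU lay far from its original and close to mouse RX11LU. The run term was therefore also fitted without that mouse, from the repeats of 3 mice. The run term came without a term for the mouse, so repeats were set against group means and not paired with their originals. In whole kidney RNA, fewer cells of a type and less RNA per cell cannot be told apart.

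Per length, in CPM per kilobase of exon, Car2 was the highest member in young kidneys at 219.7 ± 21.1 (SD, n = 30) and Slc26a7 the lowest at 0.246 ± 0.144. Between them stood Slc4a4 at 91.7 ± 18.6, Atp6v0a4 at 70.7 ± 8.36, Atp6v1b1 at 41.0 ± 7.55 and Slc26a4 at 35.7 ± 7.02, then Slc4a1 at 21.8 ± 3.60, Slc4a9 at 17.2 ± 3.25, Foxi1 at 15.9 ± 4.21 and Slc9a3 at 11.7 ± 3.79. Within single young libraries most neighbours kept this order, but Slc4a9 stood above Foxi1 in 22 of 30 and Foxi1 above Slc9a3 in 23 of 30, so these 3 levels overlapped. Slc4a4 exceeded Atp6v0a4 in 29 of 30 young, 11 of 27 nephritic and 1 of 8 remission libraries. Slc26a4 exceeded Slc4a1 in 30 of 30 young and 27 of 27 nephritic but 2 of 8 remission libraries. Slc4a9 stood above Foxi1 in 0 of 8 remission libraries. Exons of Atp6v0a4 share 62 bases with Tmem213 on the other strand and 259 bases with D630045J12Rik. Whether reads were counted by strand is not given in the sources used here, so its level may hold reads of these genes.

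**Figure D1:**
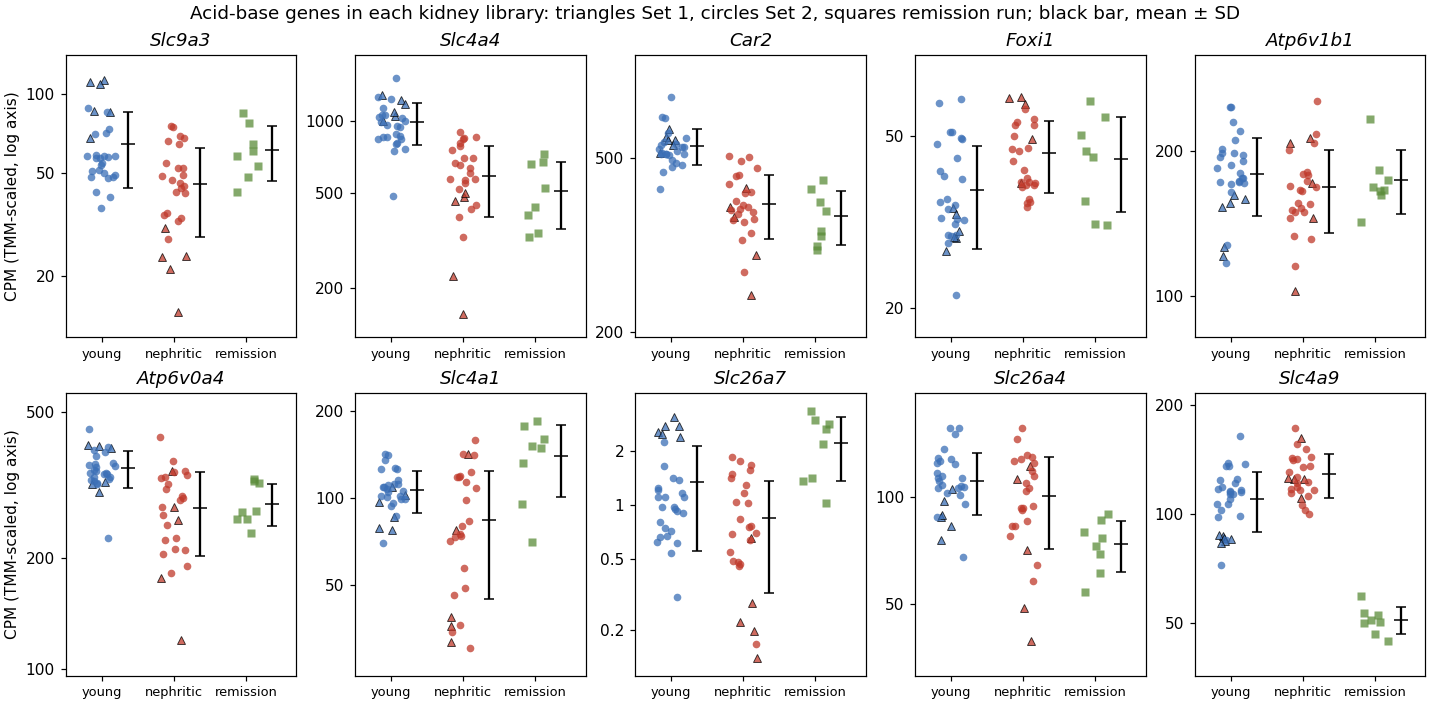
TMM-scaled CPM (log axis) of the 10 genes, 1 point per library, for 30 young, 27 nephritic and 8 remission mice, triangles for Set 1, circles for Set 2 and squares for the remission run, with bars for the mean ± SD. The 8 remission libraries of Slc4a9 lie between 44.6 and 59.2 CPM, below every young and nephritic library, and the Set 1 nephritic libraries of Slc9a3 lie between 14.6 and 30.8 CPM.

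Averaged over the 6 time points and with the RNASeq set as a covariate, 6 of 10 members were lower in nephritic than in young kidneys, 2 were higher and 2 did not pass. Of 17521 genes tested, 62.1% passed, 33.9% as lower and 28.1% as higher. The median difference of the members was -0.38 and that of all genes -0.03. The lower members were both proximal transporters, Car2, Atp6v0a4, Slc4a1 and Slc26a7, and the higher ones were Foxi1 and Slc4a9. The shifts of the 8 called members ranged from -0.78 for Slc4a4 to 0.29 for Foxi1.

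In the proximal tubule, Slc4a4, the sodium-bicarbonate cotransporter that exports bicarbonate to the blood (chromosome 5, 88886818 to 89239653, GRCm38), was at 484 to 1511 CPM with a median of 994 in young mice and at 156 to 901 CPM with a median of 573 in nephritic mice. The ranges overlapped, and the nephritic median lay well under the young one. The difference was -0.78 (SE 0.11, adjusted p = 4.0e-08). Slc9a3, the sodium-proton exchanger NHE3 (chromosome 13, 74121457 to 74169442), ran from 36.7 to 113 CPM (median 57.7) in young and from 14.6 to 75.5 CPM (median 44.6) in nephritic kidneys. Its libraries overlapped widely, and its difference was -0.54 (SE 0.13, adjusted p = 0.00032). Car2, the cytosolic carbonic anhydrase of proximal and intercalated cells (chromosome 3, 14886273 to 14900770), fell by 0.46 (SE 0.05, adjusted p = 1.8e-11). Its levels were 424 to 689.8 CPM (median 526.5) in young and 242 to 505 CPM (median 386) in nephritic mice, with the groups overlapping only between 424 and 505 CPM.

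Among intercalated cell genes, Foxi1, the transcription factor that specifies these cells (chromosome 11, 34204338 to 34208089), rose with nephritis by 0.29 (SE 0.07, adjusted p = 0.00034). It ran from 21.5 to 60.6 CPM (median 34.0) in young and from 34.3 to 61.4 CPM (median 43.8) in nephritic kidneys, so nephritic kidneys lacked the lowest young levels while the highest libraries of both groups met. The proton pump is a V-ATPase, and its members here are the cell-type-specific subunits B1 and a4. Atp6v1b1 (B1, chromosome 6, 83742990 to 83758855) was at 117 to 247 CPM (median 176) in young and 102 to 254 CPM (median 166) in nephritic mice, a difference of -0.11 (SE 0.06, adjusted p = 0.14) that did not pass. Atp6v0a4 (a4, chromosome 6, 38048483 to 38124586) fell by 0.38 (SE 0.08, adjusted p = 3.7e-05), from a median of 344 (227 to 451) to 276 (119 to 428) CPM. So the B1 and a4 subunits of 1 pump were called differently, although the difference between them was not tested.

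Of the type A exchangers, Slc4a1, the chloride-bicarbonate exchanger AE1 of red cells and type A cells (chromosome 11, 102348824 to 102366203), had a lowest, median and highest level of 70.4, 106 and 143 CPM in young mice. In nephritic mice these were 30.5, 77.6 and 159 CPM, so nephritic kidneys spread beyond the young range on both sides. The difference was -0.39 (SE 0.13, adjusted p = 0.0087). Slc26a7, a chloride-bicarbonate exchanger of type A and other cells (chromosome 4, 14502430 to 14621805), was scarce, at 0.307 to 3.10 CPM in young and 0.139 to 1.85 CPM in nephritic mice (9 to 97 and 5 to 66 counts a library). Its difference of -0.60 (SE 0.23, adjusted p = 0.024) lost its call when any 1 of 6 libraries (ZT20LU, CRS6LU, CRS6LL, CRS60, HIL5RU or HIL5LL) was left out, with an adjusted p of up to 0.063.

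Of the type B exchangers, Slc26a4 (pendrin, chromosome 12, 31519827 to 31559969), the luminal chloride-bicarbonate exchanger, was at 67.7 to 157 CPM (median 108) in young and 39.2 to 157 CPM (median 104) in nephritic kidneys. Its difference of -0.16 (SE 0.09, adjusted p = 0.095) did not pass with edgeR, while limma-voom gave -0.20 (adjusted p = 0.047). Slc4a9 (AE4, on chromosome 18), a transporter of the blood side of type B cells, rose with nephritis by 0.23 (SE 0.05, adjusted p = 0.00034). Its lowest, median and highest levels were 72.2, 113 and 164 CPM in young and 99.8, 125 and 172 CPM in nephritic mice. The 2 type B genes therefore stood on different sides of 0, one of them without a call.

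Markers of other cells moved with diagnosis, and are read against the 33.9% of all genes that were lower and the 28.1% that were higher. All 8 proximal tubule markers were lower in nephritic kidneys, with a summed level of 8660 to 15442 CPM in young and 1436 to 11545 CPM in nephritic mice, and all 8 leukocyte and macrophage markers were higher (105 to 228 against 247 to 1671 CPM). All 4 tubular injury markers were higher too (34.7 to 144 against 43.4 to 1770 CPM), and no marker of these lists was at 0. Of 12 other intercalated cell markers and acid sensors, 3 were higher and 4 lower, and their sum ran from 641 to 1189 CPM in young and from 620 to 1261 CPM in nephritic kidneys. The part of these shifts in the member results was not tested.

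The sets did not show one difference. At ZT0 and ZT12, where both sets have mice, the nephritic difference itself differed between Set 1 and Set 2 for 6 of 10 members, while 35.1% of 16684 genes did so. In Set 1 alone 7 members were called (60.9% of genes) and in Set 2 alone 3 (36.3%). In Set 1, Slc9a3 was at 68.0 to 113 CPM in 6 young and 14.6 to 30.8 CPM in 5 nephritic mice, groups that did not overlap (15.9% of 17587 genes had all nephritic libraries of Set 1 below all young ones). In Set 2 at the same times, 8 young mice had 47.6 to 85.1 CPM and 8 nephritic mice 32.5 to 75.5 CPM, which overlapped. The log2 differences were -2.02 (SE 0.18, adjusted p = 7.9e-09) and 0.10 (SE 0.14, adjusted p = 0.58), and the difference between them was -2.12 (SE 0.22, adjusted p = 2.3e-06). Slc26a7 showed the same split, with 2.41 to 3.10 CPM in young and 0.139 to 0.654 CPM in nephritic mice of Set 1 and 0.537 to 1.64 against 0.458 to 1.85 CPM in Set 2. Its differences were -3.14 and -0.02, apart by -3.13 (SE 0.50, adjusted p = 6.5e-05).

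Foxi1 rose by 0.78 with nephritis in Set 1 (SE 0.12, adjusted p = 5.0e-06) and stood at -0.02 in Set 2 (SE 0.10, adjusted p = 0.91, no call), a difference between sets of 0.80 (adjusted p = 0.00029). Slc4a4 was lower in both, by -1.73 and -0.55 (adjusted p = 6.3e-06 and 0.039), but the drops differed (adjusted p = 0.0068). Slc4a9 (0.59 and 0.17) and Atp6v1b1 (0.17 and -0.33) also differed between sets, with adjusted p-values of 0.013 and 0.037. For Car2 (-0.70 and -0.41), Atp6v0a4 (-0.65 and -0.38), Slc4a1 (-0.61 and -0.64) and Slc26a4 (-0.21 and -0.18) the sets were not shown to differ, with adjusted p-values of 0.18 to 0.96. In Set 2 alone over all time points, Slc9a3 (-0.19, adjusted p = 0.086), Slc4a1 (-0.31, adjusted p = 0.055) and Slc26a7 (-0.08, adjusted p = 0.72) no longer passed and Atp6v1b1 did (-0.14, adjusted p = 0.048). Havcr1, a marker of injured proximal tubules, had a median of 470.7 CPM in the 5 nephritic mice of Set 1 and 122 CPM in the 22 of Set 2, and its part in these differences was not tested.

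**Figure D2:**
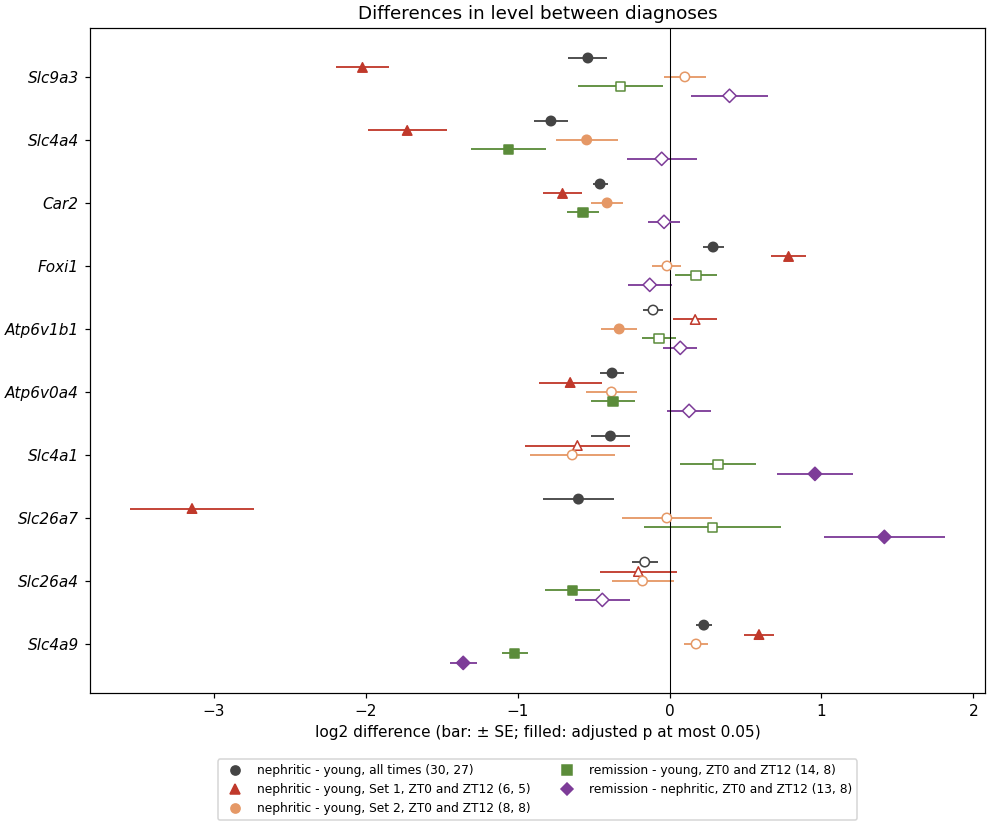
Log2 differences in level with their standard errors for the 10 genes, for nephritic against young mice (all times, then Set 1 and Set 2 at ZT0 and ZT12) and for remission against young and nephritic mice at ZT0 and ZT12, with filled points past an adjusted p of 0.05. Slc4a9 lies at 0.23 for nephritic against young and at -1.36 and -1.02 for remission against nephritic and young.

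By single time points, the number of members called between nephritic and young mice was 6 at ZT0 (39.5% of all genes), 3 at ZT4 (30.3%), 0 at ZT8 (3.66%), 7 at ZT12 (50.0%), 1 at ZT16 (17.7%) and 0 at ZT20 (5.48%). At ZT0 Foxi1 (0.33) and Slc4a9 (0.40) were higher (20.1% of all genes) and Slc9a3, Slc4a4, Car2 and Slc26a7 lower (19.4%), from -0.46 for Car2 to -1.26 for Slc26a7. At ZT12 Slc4a9 was higher by 0.26 (25.8% of genes higher), and Slc9a3, Slc4a4, Car2, Atp6v1b1, Atp6v0a4 and Slc4a1 were lower (24.2%), from -0.39 for Atp6v1b1 to -1.04 for Slc4a4. At ZT4, when only Set 2 was sampled, Car2 (-0.54), Atp6v0a4 (-0.73) and Slc4a1 (-0.88) were lower (16.4% of genes). Car2 was the single member called at ZT16, lower at -0.45 (SE 0.14, adjusted p = 0.019) where 7.66% of genes were lower. At ZT8 and ZT20 edgeR's quasi-likelihood test called none, with 1 member at each under an unadjusted p of 0.05 (Car2 and Foxi1). DESeq2 called 0 and 1, and limma-voom 0 and 0. These times held 3 or 4 mice a group, and differences between time points are covered by the test of rhythm.

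Over the day in young kidneys, 4 of 10 members differed among the 6 time points, where 39.8% of 16521 genes did. Foxi1 had the smallest adjusted p of the members, with 44.3, 49.1, 49.3 and 59.4 CPM at ZT8 against 29.5 to 35.7 CPM at ZT4 and 21.5, 29.4, 32.2 and 32.3 CPM at ZT20, so that the ZT8 mice stood above all mice of both times (adjusted p = 6.1e-05). At ZT0 its 4 Set 2 mice, at 47.7 to 60.6 CPM, were as high as those of ZT8, while the 3 Set 1 mice had 27.2 to 34.1 CPM. All 4 ZT8 mice stood above all 4 ZT20 mice for 10.1% of genes. The cosine amplitude of Foxi1 was 0.24 (SE 0.09) on the log2 scale, though a test of a 24 h cosine in place of separate time points gave an adjusted p of 0.087. Slc4a9 was at 121, 124, 138 and 164 CPM at ZT8 and at 72.2, 113, 115 and 117 CPM at ZT20, again without overlap (adjusted p = 0.039). Atp6v1b1 was at 198, 202, 230.1 and 247 CPM at ZT8 and at 128 to 172 CPM at ZT20 (adjusted p = 0.032). Slc4a1 was highest at ZT4, 109.7 to 141 CPM, and lowest at ZT16, 70.4 to 102 CPM (adjusted p = 0.016). Slc4a9 lost its call when any 1 of 9 libraries was left out (adjusted p up to 0.12), and Atp6v1b1 without ZT8RL, ZT8LL or ZT20LU (up to 0.073). Without the set covariate, Slc4a1 (adjusted p = 0.053) and Atp6v1b1 (adjusted p = 0.17) did not pass.

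In nephritic kidneys 2 of 10 members differed among time points, where 21.6% of 16872 genes did. Atp6v1b1 was at 178, 201, 208 and 254 CPM at ZT8, above all 4 mice of ZT4 (133 to 155 CPM) and all 6 of ZT12 (102 to 166 CPM), with an adjusted p of 0.025 (4.47% of genes had ZT8 mice above all of both times). Slc9a3 had medians of 53.3 CPM at ZT4, 58.1 at ZT12 and 34.3 at ZT16 (adjusted p = 0.023), and the ZT12 mice alone spanned 23.9 to 75.5 CPM. Neither passed with a 24 h cosine (adjusted p = 0.72 and 0.56), and Atp6v1b1 lost its call without RX7LU or RX12RL (up to 0.068) and Slc9a3 without RX11RU (0.052). Foxi1 and Slc4a9 had amplitudes of 0.12 (SE 0.06) and 0.02 (SE 0.07) in nephritic mice, against 0.24 (SE 0.09) and 0.21 (SE 0.05) in young mice. The other amplitudes, nephritic then young, were 0.11 and 0.21 for Atp6v1b1, 0.10 and 0.16 for Slc26a4 and 0.21 and 0.23 for Slc9a3. For Slc4a1 they were 0.19 and 0.22, for Slc4a4 0.21 and 0.21 and for Car2 0.12 and 0.11. For Atp6v0a4 they were 0.13 and 0.10 and for Slc26a7 0.25 and 0.19. The test of a different rhythm called 0 of 10 members, against 6.27% of all genes. Of the members, 4 had an unadjusted p under 0.05 there (Atp6v0a4, Atp6v1b1, Slc4a9 and Slc4a1), the smallest adjusted p was 0.10 for Atp6v0a4, DESeq2 called 1 (Atp6v0a4, adjusted p = 0.047) and limma-voom 0.

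**Figure D3:**
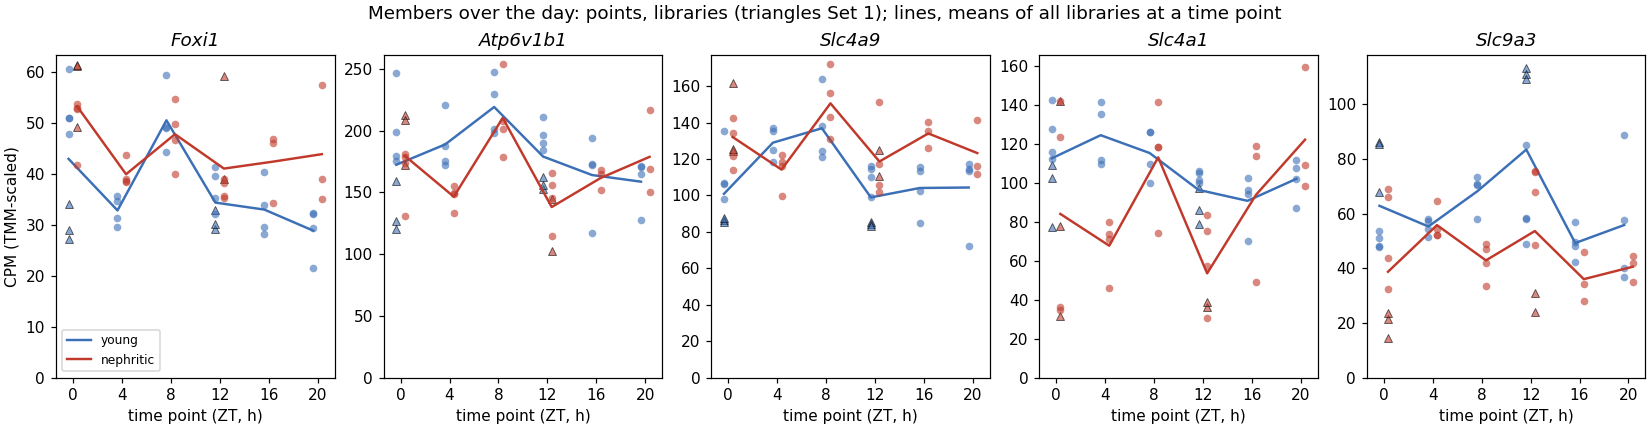
TMM-scaled CPM against zeitgeber time (hours) for Foxi1, Atp6v1b1, Slc4a9, Slc4a1 and Slc9a3, 1 point per library (triangles Set 1) with lines through the means of young and nephritic mice at each time. Young Foxi1 stands at 44.3 to 59.4 CPM at ZT8 and at 21.5 to 32.3 CPM at ZT20.

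Between ZT0 and ZT12, the 2 times shared by all diagnoses, 0 members were called in young (3.66% of genes), nephritic (3.52%) or remission (0.0475%) mice. With edgeR, 0, 4 and 0 members had an unadjusted p under 0.05, and DESeq2 called 0, 1 and 0 while limma-voom called none in any group. In nephritic mice Atp6v1b1 came nearest, at 131 to 213 CPM at ZT0 and 102 to 166 CPM at ZT12, a difference of 0.43 (SE 0.13, adjusted p = 0.063).

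Remission kidneys were compared at ZT0 and ZT12 with 13 nephritic and 14 young mice of the same times, so both comparisons share the remission libraries. Against nephritic mice 3 of 10 members passed, 2 higher and 1 lower, where 37.8% of 16841 genes did (17.1% higher, 20.8% lower). Against young mice 5 of 10 passed, all lower, where 41.6% of genes did (21.1% higher, 20.5% lower). The member medians were 0.02 and -0.35, and those of all genes -0.02 and -0.01. The nephritic mice of these times differed from the young in 8 of 10 members, 2 higher and 6 lower (56.0% of genes, 29.2% higher and 26.8% lower).

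Slc4a9 was lower in remission than in the other groups. At ZT0 libraries s1, s3, s4 and s8 were at 53.3, 44.6, 46.5 and 50.0 CPM, and at ZT12 libraries s9, s10, s12 and s14 were at 52.5, 59.2, 50.8 and 50.2 CPM. All 8 lay below all 57 young and nephritic libraries of any time point (72.2 to 172 CPM), which 1.12% of 17587 genes did. The difference was -1.36 (SE 0.09, adjusted p = 7.1e-13) against nephritic and -1.02 (SE 0.09, adjusted p = 2.2e-10) against young mice, a fold of 0.39 and 0.49. By p it ranked 7 and 26 of 16841 genes. The 4 repeat libraries of young and nephritic mice, assigned to the run of the remission mice, had 107 to 122 CPM where their originals had 107 to 122 CPM. With a run term set by these repeats, Slc4a9 was lower by -1.30 (SE 0.11, adjusted p = 9.7e-10) and -0.99 (SE 0.11, adjusted p = 2.2e-07), and with the repeats of 3 mice it was lower by -1.33 (SE 0.12, adjusted p = 4.8e-08) against nephritic mice and again passed against young mice (adjusted p = 2.2e-06).

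**Figure D4:**
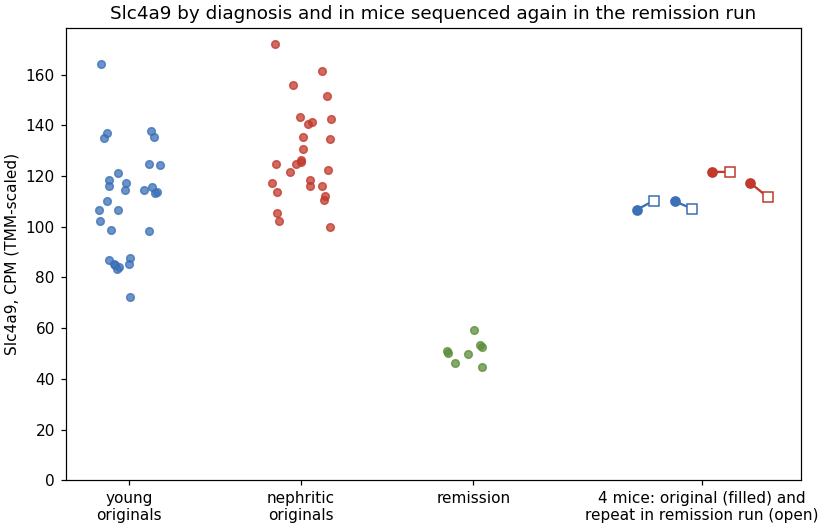
TMM-scaled CPM of Slc4a9 by library for young, nephritic and remission mice, and for 4 mice the original (filled) joined to the repeat library assigned to the remission run (open). The repeat libraries sit between 107 and 122 CPM and the remission libraries between 44.6 and 59.2 CPM.

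Slc26a7 was at 2.20 to 3.35 CPM at ZT0 and 1.03 to 2.64 CPM at ZT12 in remission, and 5 of the 8 libraries lay above all 13 nephritic ones (0.139 to 1.85 CPM). It rose by 1.41 (SE 0.40, adjusted p = 0.0059) against nephritic mice, by 1.64 (adjusted p = 0.042) with the run term and by 2.02 (SE 0.70, adjusted p = 0.035) with the run term of 3 mice. The nephritic mice here pool both sets, which differed widely. Mean Slc26a7 was 0.299 CPM in the 5 nephritic mice of Set 1, 1.12 CPM in the 8 of Set 2 and 2.23 CPM in remission. Against young mice its difference was 0.28 (SE 0.45, adjusted p = 0.65) with both sets and 0.92 (SE 0.29, adjusted p = 0.015) with Set 2 and remission alone. Slc4a1 was at 185, 177, 160.3, 152, 149, 133, 95.9 and 70.7 CPM in s8, s9, s3, s10, s4, s1, s12 and s14, and 5 of the 8 lay above all 13 nephritic libraries (30.5 to 142 CPM). Its difference was 0.96 (SE 0.25, adjusted p = 0.0031) against nephritic mice and 0.32 (SE 0.25, adjusted p = 0.31) against young mice. With the run term the first was 0.99 (adjusted p = 0.043), and 1.24 (adjusted p = 0.037) with 3 mice. That term did not pair repeats with originals. Repeats of ZT0LU, ZT12RU and RX12RU stood above their originals for Slc4a1, by 0.12, 0.18 and 0.09. The repeat labelled RX11RU stood above by 0.48, but it lay far from its original over all genes and close to RX11LU.

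The 3 remission libraries with the highest Slc4a1 also had the highest Alas2, the heme synthesis enzyme of red cell precursors, at 48.1 (s8), 51.3 (s9) and 19.6 CPM (s3) against 0.506 to 4.15 CPM in the other 5. The 13 erythroid markers summed to 1.57 to 9.32 CPM in young, 1.70 to 12.2 CPM in nephritic and 2.17 to 56.8 CPM in remission mice, and 6 of them, all globin genes, were listed at 0 in every library. Without s3, s8 and s9 the Slc4a1 difference from nephritic mice was 0.76 (SE 0.29, adjusted p = 0.051) and no longer passed. Without s9, whose Arntl did not match its time label, it was 0.84 (adjusted p = 0.011). Since s3, s8 and s9 were the highest in Slc4a1 itself, leaving them out lowers its difference in any case. That fit therefore cannot relate Slc4a1 to Alas2, and the part of red cells in Slc4a1 was not tested.

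Slc26a4 was at 54.0 to 89.4 CPM (median 74.7) in remission, where 14 young mice had 75.9 to 151 CPM (median 104) and 13 nephritic mice 39.2 to 157 CPM (median 82.8). It was lower than in young mice by -0.64 (SE 0.18, adjusted p = 0.0059), with overlap. Its difference from nephritic mice was -0.44 (SE 0.18, adjusted p = 0.053) and did not pass. That call changed when any 1 of 7 libraries was left out, and over all such fits the adjusted p ran from 0.019 to 0.11. Slc4a4 was at 328 to 728 CPM and Car2 at 308 to 446 CPM in remission, below all 14 young mice of these times (763 to 1286 and 464 to 689.8 CPM), as were 4.08% of genes. Their differences from young mice were -1.06 (SE 0.25, adjusted p = 0.0010) and -0.57 (SE 0.11, adjusted p = 8.2e-05), while those from nephritic mice were -0.05 and -0.04 (adjusted p = 0.88 and 0.81). Atp6v0a4, at 235 to 328 CPM in remission, was lower than in young mice by -0.37 (SE 0.15, adjusted p = 0.041), a call lost when any 1 of 7 libraries was left out (ZT00, HIL5LL, s3, s8, s9, s12 or s14, adjusted p up to 0.091).

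These calls changed with the run term, which did not pair repeats with their originals. In the 3 mice ZT0LU, ZT12RU and RX12RU, repeat minus original (log2) was -0.07, -0.01 and 0.05 for Slc4a4. For Slc26a4 it was -0.06, -0.11 and -0.10, and for Atp6v0a4 -0.18, -0.15 and -0.14. For Car2 it was -0.14, -0.08 and -0.17. Fewer of all genes passed with a run term too, as given below. With the run term of all 4 repeats, 2 of 10 members stayed below young levels, Slc4a9 and Slc4a4 (-0.88, adjusted p = 0.047), while Car2 stood at -0.38 (adjusted p = 0.053), Slc26a4 at -0.37 (adjusted p = 0.33) and Atp6v0a4 at -0.01 (adjusted p = 0.98). With the repeats of 3 mice 1 member did, Slc4a9, while Slc4a4 stood at -0.72 (adjusted p = 0.15), Car2 at -0.32 (adjusted p = 0.18), Slc26a4 at -0.27 (adjusted p = 0.61) and Atp6v0a4 at 0.081 (adjusted p = 0.87). Atp6v1b1 (-0.07), Foxi1 (0.17) and Slc9a3 (-0.32) did not pass against young mice in the fit without a run term (adjusted p = 0.64, 0.32 and 0.38). Proximal tubule markers summed to 5910 to 9845 CPM and thick limb markers to 7336 to 10139 CPM in remission, the latter against 3581 to 10199 CPM in young and 1524 to 8295 CPM in nephritic mice. All 8 leukocyte markers stayed above young levels (272 to 912 CPM in sum). Their part in the member results was not tested.

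Within the nephritic group the members were set against Havcr1 across 27 kidneys, whose Havcr1 ran from 21.3 to 1113 CPM (median 156). These relations took no account of time point, nor of RNASeq set where both sets were used. The Havcr1 medians were 186, 193, 56.8, 131, 42.6 and 188 CPM at ZT0, ZT4, ZT8, ZT12, ZT16 and ZT20. Of 10 relations of log2 CPM, 6 passed a two-sided permutation test with 100000 draws and Benjamini-Hochberg adjustment, all negative. Only the 10 members were tested, so the share of all genes related to Havcr1 in this way is not known. Slc4a1 gave Pearson r = -0.85 and Spearman rho = -0.82 (permutation p = 1e-05 for both, the smallest these draws can give, adjusted p = 3.3e-05). Atp6v0a4 gave r = -0.78 and rho = -0.81, and Slc26a4 r = -0.76 and rho = -0.74, with the same permutation p-values. Car2 (r = -0.66, rho = -0.61), Slc4a4 (r = -0.64, rho = -0.66) and Atp6v1b1 (r = -0.49, rho = -0.49) followed, with permutation p-values of 0.00022, 0.00023 and 0.0080 for r and 0.0011, 0.00028 and 0.011 for rho, and adjusted p-values of 0.00046, 0.00046 and 0.013 for r. For Slc26a7 r was -0.39 and rho -0.35 (permutation p = 0.043 and 0.074, adjusted 0.062 and 0.11), for Slc9a3 -0.28 and -0.25 (permutation p = 0.15 and 0.21), for Foxi1 0.26 and 0.24 (permutation p = 0.19 and 0.22) and for Slc4a9 0.02 and -0.09 (permutation p = 0.90 and 0.67).

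Within the 22 nephritic mice of Set 2 the same 6 passed, with r of -0.79 for Slc4a1, -0.83 for Atp6v0a4, -0.74 for Slc26a4, -0.70 for Slc4a4, -0.62 for Car2 and -0.54 for Atp6v1b1. Set 1 held 5 nephritic mice, too few for a value. Without the 2 mice whose Havcr1 lay farthest from the median, RX12RU and RX8LL, the same 6 passed as well, from r = -0.84 for Slc4a1 to -0.48 for Atp6v1b1. The members share libraries and scaling with one another, so the 10 relations are not independent. Slc9a3, lower in Set 1 nephritic mice as a group, had r = -0.10 with Havcr1 within Set 2, and there its relation was not detectable.

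**Figure D5:**
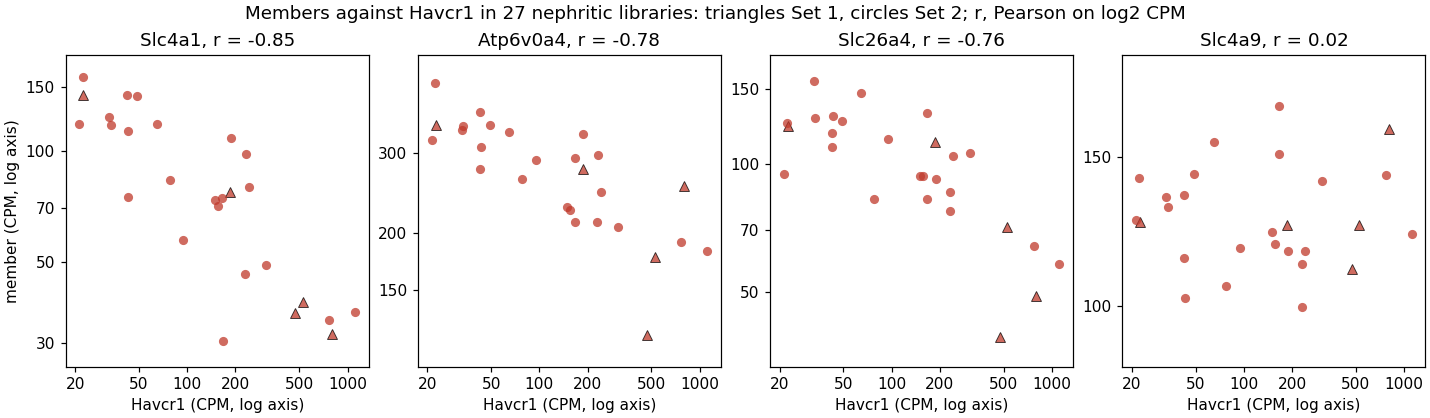
CPM of Slc4a1, Atp6v0a4, Slc26a4 and Slc4a9 against that of Havcr1 (both log axes) in 27 nephritic kidneys, 1 point per mouse, triangles for Set 1 and circles for Set 2. Slc4a1 is lower where Havcr1 is higher (r = -0.85), while Slc4a9 has r = 0.02.

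Across the 65 original libraries, after each diagnosis and time point mean was taken away, 18 of 45 pairs of members had a residual Pearson r above 0.5. The share among pairs of all genes was not computed, so the count has no background to be read against. These are descriptions over libraries that share depth and scaling, given with no test, and they keep the difference between RNASeq sets. With the mean of each set taken away too, a choice made after seeing the data, 16 pairs did. Slc4a4 and Atp6v0a4 were the closest pair (0.83, and 0.80 without set means), followed by Car2 with Atp6v0a4 (0.82 and 0.79), Slc9a3 with Slc26a7 (0.77 and 0.57) and Slc4a4 with Car2 (0.77 and 0.72). Slc26a4 went with Atp6v0a4 (0.74 and 0.73) and Slc4a1 (0.72 and 0.71), and Foxi1 with Slc4a9 (0.62 and 0.54) and Atp6v1b1 (0.60 and 0.52). Foxi1 and Slc26a7 had a negative value (-0.59 and -0.38). So the pairs of Slc26a7 with Slc9a3 and Foxi1 were weaker once the sets were centred. The 5 genes most like Foxi1 of 17586 compared were Hsd11b2 (0.74), Blcap (0.74), Atp6v1g3 (0.74), Hmx2 (0.73) and Plekhd1 (0.72). Those most like Slc26a4 included Insrr (0.88), Klk1 (0.88), Apom (0.85) and Urgcp (0.84). For Slc9a3 they were Prepl (0.90), Susd6 (0.90), Map3k15 (0.89), Ccdc93 (0.89) and Lpgat1 (0.88). Without set means these genes had 0.61 to 0.66 with Foxi1, 0.82 to 0.88 with Slc26a4 and 0.76 to 0.83 with Slc9a3.

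The wider acid-base pathway was read from lists of other genes, each in nephritic against young mice, where 62.1% of all genes passed, 33.9% as lower and 28.1% as higher. Of 19 other V-ATPase subunits tested (20 listed), 2 were higher and 12 lower, with a median of -0.14. Atp6v0e2 (-0.50), Atp6v1a (-0.42) and Atp6v1b2 (-0.37) were lower and Atp6v0a1 (0.17) and Atp6v0b (0.13) higher. Atp6v1b2, the ubiquitous counterpart of the B1 subunit, was thus lower while Atp6v1b1 itself did not pass (-0.11). Atp6v0a1, a counterpart of a4, was higher while Atp6v0a4 was lower (-0.38), and the differences between subunits were not tested. Of 18 other Slc4, Slc9 and Slc26 exchangers and H,K-ATPases, 6 were higher and 7 lower (median -0.07). The H,K-ATPase Atp12a was higher by 1.82 (SE 0.30, adjusted p = 7.0e-07), Slc4a7 by 0.30 and Slc4a3 by 0.19, and Slc9a8 (-0.66), Slc9a2 (-0.64) and Slc26a1 (-0.49) were lower.

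All 10 other carbonic anhydrases passed, 8 lower and 2 higher (median -0.54), beside 33.9% and 28.1% of all genes. Car14, a membrane-bound form, was lower by -1.21 (SE 0.18, adjusted p = 6.1e-08), Car3 by -0.95 and Car5a by -0.69, and Car13 (1.10) and Car15 (0.47) were higher. Of 7 genes of ammonia production and transport, 6 were lower (33.9% of all genes) and none higher (median -0.50), led by Pck1 (-0.99, SE 0.20, adjusted p = 3.4e-05), an enzyme of gluconeogenesis and ammonia formation, Slc38a3 (-0.64), a glutamine importer, and Glud1 (-0.58), glutamate dehydrogenase. Of the other intercalated cell markers and acid sensors, Adcy10 (-0.74), the bicarbonate-sensitive adenylyl cyclase, Oxgr1 (-0.32) and Insrr (-0.27), an alkali-sensing receptor, were lower, and P2ry14 (0.42), Dmrt2 (0.42) and Kit (0.22) were higher.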

How the data were processed

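The authors isolated mRNA with oligo-dT beads from total RNA, sequenced it on an Illumina HiSeq with 150 bp reads, aligned it to mm10 and deposited raw read counts per gene symbol. The study's methods name a Burrows-Wheeler aligner and unique exon reads with at most 2 mismatches, while the submitters' processing notes name HISAT. Each library lists 24538 symbols, and 15 without a value in any library were left out. Groups came from the labels, whose sample names are the only sign of separate animals, so p-values measure the spread between these samples. Genes with at least 100 counts over the libraries of a fit were kept and scaled by TMM. The quasi-likelihood test of edgeR 4.0.16 (R 4.3.3) used diagnosis, time point and RNASeq set, with Benjamini-Hochberg adjustment at 0.05. Log2 CPM used a prior count of 2. Positions and exon lengths came from a GENCODE annotation of GRCm38. Scripts were tested on simulated data. Alternatives were RLE factors, DESeq2 1.42.0, limma-voom 3.58.1, no filter, no set covariate, Set 2 alone, a 24 h cosine, repeat libraries, a run term and leaving out libraries. The named genes were the 10 members, the largest changes of each pathway list (at most 3 a direction) and the 5 genes most like Foxi1, Slc26a4 and Slc9a3, apart from 1 that is not reported here. Members and lists were chosen with earlier results of these data known.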

Additional observations from a re-analysis of the deposited data

Results flagged for a closer look

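At ZT0 and ZT12 the nephritic difference of 6 members differed between RNASeq sets by the test of that difference itself. Set 1 minus Set 2 was -2.122 for Slc9a3, -3.126 for Slc26a7, -1.181 for Slc4a4, 0.8005 for Foxi1, 0.4143 for Slc4a9 and 0.5 for Atp6v1b1 on the log2 scale. Age, litter and day of collection of the sets are not given in the sources used here, and the cause was not tested.

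In 120 groups of 4 to 10 libraries (10 members in 12 groups), 10 held 1 library far from the others, and chance gives about 1 in 20 groups. Young library ZT00 of ZT0 was high for Car2 (689.8 CPM against 514 to 558), Atp6v0a4 (451.1 against 302 to 349) and Slc4a9 (135.1 against 85.3 to 107). Young library ZT20LU of ZT20 was high for Slc4a4 (1511 CPM against 751 to 859) and low for Atp6v1b1 (127.7 against 165 to 172) and Slc4a9 (72.24 against 113 to 117). Nephritic library HIL5LL of ZT12 was high for Foxi1 (59.25 CPM against 35.2 to 39.0), and RX11LU of ZT4 likewise (43.78 against 38.5 to 38.9). Remission library s10 of ZT12 was high for Atp6v0a4 (328.3 CPM against 256 to 267), and young library ZT8LU of ZT8 for Slc26a7 (0.9794 CPM against 0.609 to 0.671).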

How the results depend on the processing

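In the settings tried for single members, 992 values kept direction and call, 37 lost and 26 gained a call, and 5 changed sign. The sign changes were Slc9a3 for nephritic against young at ZT0 and ZT12 (0.10 in Set 2 and remission alone, 0.10 with separate sets), Foxi1 there (-0.013 and -0.017), and Atp6v0a4 for remission against young with the 3-mouse run term (0.081). The settings with remission and Set 2 alone, without s3, s8 and s9, with 3 mice, without RX10RU, with separate sets and with set means removed for the pairs of members were chosen after seeing the data. Where a cause is not part of the setting itself, the cause was not tested. Where this section counts only members, their change is not set beside that of all genes. Groups of 3 or 4 mice at most time points and the low counts of Slc26a7 (from 5 a library) limit what could be detected.

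For nephritic against young, members called at ZT0 went from 6 to 3 in Set 2 alone, at ZT4 from 3 to 5, and at ZT12 from 7 to 2 (genes from 8757 to 5080). At ZT8, 641 genes became 216 with limma-voom, 966 in Set 2 and 155 without RX10RU. At ZT16, 1 member became 2 with RLE, DESeq2 or without RX10RU and 3 in Set 2 alone, and at ZT20, 0 became 1 with RLE, DESeq2, no filter, Set 2 alone or without RX10RU. Over ZT0 and ZT12, 8 members became 4 in Set 2 and remission alone and 3 in the separate difference of Set 2 (genes 9426 to 6060). For the difference in rhythm, 0 members became 1 with DESeq2 and in Set 2 alone, and 1099 genes became 2201 with DESeq2, 453 with limma-voom, 1715 in Set 2, 693 with repeat libraries and 121 with the cosine. For time points in nephritic mice, 2 members became 1 without the set covariate or with repeat libraries and 0 with the cosine, and 3646 genes became 5646 with DESeq2, 1994 without the covariate and 362 with the cosine.

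For remission against nephritic mice, 6370 genes became 4031 with the run term and 4086 with 3 mice. Against young mice, 5 members became 2 and 1, and 7009 genes became 2417 and 1795, or 4641 without s3, s8 and s9. Between ZT0 and ZT12 in nephritic mice, 0 members became 1 with DESeq2, and 592 genes became 1043 with DESeq2, 383 without s3, s8 and s9 and 98 in Set 2 and remission alone. In remission mice 8 genes became 39 with DESeq2, 0 with limma-voom, 83 without s9, 13 with 3 mice, 17 without s3, s8 and s9 and 4 in Set 2 and remission alone.

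Leaving out 1 library at a time gave these lowest and highest counts. Between nephritic and young mice, members ran from 7 to 8 on average (genes 10453 to 10985), 3 (without CR6LL) to 7 at ZT0, 5 to 8 at ZT12, 0 (without RX7LL) to 2 at ZT16 and 0 to 1 at ZT20. Genes ran from 155 (without RX10RU) to 768 at ZT8, 1591 (without RX7LL) to 3344 at ZT16 and 387 (without RX110) to 1142 at ZT20. For the difference in rhythm they were 0 to 1 members and 638 to 1771 genes (without RX1OLL and RX10RL), for time points 2 (without ZT8LL) to 5 members in young and 1 (without RX11RU) to 3 in nephritic mice. Between ZT0 and ZT12 they were 0 to 2 members and 55 (without HIL5RU) to 1068 genes (without HIL5LL) in nephritic and 0 to 83 genes (without s1 and s9) in remission mice. Between groups of mice, no paired analysis was possible because the labels carry no replicate numbers and those used here follow accession order only. The repeat libraries carry the names of their originals and could be paired by name, but a run term paired by mouse was not fitted.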

Other observations

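Genes beside Slc4a9 on its chromosome were also compared in remission and nephritic mice at ZT0 and ZT12 (edgeR's quasi-likelihood test with Benjamini-Hochberg adjustment). Hbegf, the next gene on one side, was lower by -0.94 (SE 0.23, adjusted p = 0.0020), Apbb3, 4 places away on the other, by -1.39 (SE 0.15, adjusted p = 1.2e-08) and Igip, 4 places away on the side of Hbegf, by -0.57 (SE 0.07, adjusted p = 1.3e-07). Ankhd1, Eif4ebp3 and Sra1, which lie between Slc4a9 and Apbb3, stood at -0.13, -0.24 and -0.12 with adjusted p-values of 0.26 to 0.42, Pfdn1 at 0.14 (adjusted p = 0.28), and Cystm1 (0.43), Pura (0.53) and Slc35a4 (0.22) were higher. These 10 neighbours were chosen for their place after the value of Slc4a9 was known.

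Of 4 thick limb markers, 3 were higher in remission than in nephritic mice (median of the list 0.75, 17.1% of all genes higher) and 2 higher than in young mice (median 0.38, 21.1% of all genes higher), while the 3 distal convoluted tubule markers were all lower than in young mice (median -0.73, 20.5% of all genes lower).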
